A study of Mus musculus with 4 samples.

Results

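The genes described here are 9 enzymes, carriers and regulators of hepatic glucose and glycogen metabolism: G6pc, Pck1, Fbp1, Gckr, Pklr, Slc2a2, Gys2, Pygl and Pfkfb1. They were chosen by symbol, as every gene probe of the array that carries one of these names, which gave 10 probes for 9 genes of 30439 genes and 39392 probes in all. Liver RNA of male C57BL/6J mice fed a high-fat diet for 24 weeks was measured on 4 single-color Agilent arrays. Each of 2 genotypes is represented by 1 array in each of 2 feeding states. Drp1LiKO mice carry Alb-Cre Tg/+ and Drp1 flox/flox, in which the albumin promoter drives Cre in hepatocytes, and the controls (Cont) are Drp1 flox/flox sibling littermates. The floxed alleles and the diet are therefore common to all 4 livers. The labels call the genotypes wild type and knockout. For the refed pair, a fast of 17 h was followed by 4 h of refeeding. The other pair has no feeding label and is read as fasted overnight from the study's methods, although the series description mentions only refed mice, so every value called fasted rests on that reading. In the study's methods the refed livers were also taken at a later hour of the day, so feeding and hour cannot be told apart. The sources used here do not say whether an array holds RNA of 1 mouse or of a pool.

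Glucose is stored and released by the liver through a small set of opposed enzymes. Glycogen synthase (Gys2) builds glycogen and glycogen phosphorylase (Pygl) breaks it down. Phosphoenolpyruvate carboxykinase (Pck1), fructose bisphosphatase (Fbp1) and the glucose-phosphatase catalytic subunit (G6pc) drive gluconeogenesis, while the regulatory protein Gckr, the bifunctional enzyme Pfkfb1 and liver pyruvate kinase (Pklr) set glycolysis, and the transporter GLUT-2 (Slc2a2) carries glucose across the hepatocyte membrane. In fasting, glucagon acting through cAMP raises transcription of Pck1 and G6pc. After a meal insulin lowers both, glucose raises Pklr through the transcription factor ChREBP, and G6pc is also known as a ChREBP target.

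Because G6pc and Pck1 were the genes of the set that moved most, their promoters are shown, from RefSeq on GRCm38.p6, as the 250 bases that end just before the annotated start. The G6pc window is chr11:101367466-101367715 and the Pck1 window is chr2:173152823-173153072, both on the plus strand. Capitals mark TGTTTTG, the core of the insulin response sequences, in G6pc, and CGTCA, the cAMP response core TGACG read on the opposite strand, in Pck1.
G6pc: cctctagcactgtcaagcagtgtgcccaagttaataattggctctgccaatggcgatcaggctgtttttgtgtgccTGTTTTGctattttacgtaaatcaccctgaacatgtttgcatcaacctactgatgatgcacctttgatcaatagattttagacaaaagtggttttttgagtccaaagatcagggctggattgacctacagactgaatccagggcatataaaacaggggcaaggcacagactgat
Pck1: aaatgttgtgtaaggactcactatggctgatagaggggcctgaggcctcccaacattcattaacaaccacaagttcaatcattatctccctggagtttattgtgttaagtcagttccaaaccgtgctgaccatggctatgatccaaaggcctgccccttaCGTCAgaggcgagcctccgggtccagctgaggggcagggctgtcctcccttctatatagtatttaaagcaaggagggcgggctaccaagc
The marked letters begin 174 bases before the start in G6pc and 90 bases before it in Pck1. On either strand, TGTTTTG was found in 5.56% of 32851 promoter windows of this length and TGACG in 17.8%, so neither is rare. The reference table holds 12 windows for 8 of the 9 genes. TGTTTTG also occurred in the Gckr window, and TGACG in the Pygl window. G6pc was the gene of the set whose window held the C/EBP-ATF composite TGATGNAA, present in 3.45% of windows, and Gckr the gene that held the glucocorticoid receptor core TGTTCT, present in 16.1%. The letters CACGTG (6.02% of windows), TGACGTCA (1.55%), TGTTTAC (3.17%), the HNF1 site and the HNF4 direct repeat were found in none of the 12 windows of these 8 genes. This says only that these letters are not there, and nothing about Gys2, which has no window.

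Values are background-subtracted signals of the scanner, given as a level (log2 of the signal over the array's own 75th percentile) or as a difference between the levels of 2 arrays. The 75th percentile was 461 in Cont and 722 in Drp1LiKO fasted livers, and 357 and 526 in the refed livers, so scaling matters for small differences. Each error is the measurement SE of the scanner's error model, about 0.20 for a difference. It leaves out the spread between animals, and with 1 array per group no test exists within a pair. All 10 probes were well above background on all 4 arrays, and no spot was saturated. The probe for the targeted gene Dnm1l (Drp1) read 1.02 and 0.81 in fasted Cont and Drp1LiKO livers and 0.66 and 0.54 in refed ones. Whether that probe lies in the deleted part is not given in the sources used here, so it checks nothing about the labels. The 8 hepatocyte markers were well above background on every array, and their summed signal, in multiples of the 75th percentile, was 2902 in Cont and 1964 in Drp1LiKO fasted livers, and 3634 and 2448 in refed livers. The 10 macrophage markers summed to 96.2 and 114 in the fasted and 108 and 190 in the refed pair, so on this scale the hepatocyte sum was lower and the macrophage sum higher in both Drp1LiKO livers. Of the single hepatocyte markers 6 of 8 were lower in fasted and 7 of 8 in refed livers, and of the macrophage markers 8 of 10 and 10 of 10 were higher. Under quantile normalization 4 and 7 of the 8 hepatocyte markers were lower, and without scaling 2 and 3, so the hepatocyte direction rests on the scaling. Of the macrophage markers 9 and 10 of 10 were higher under quantile normalization, and 10 and 10 without scaling. Other sums differed too. The 8 stellate and fibroblast markers summed to 47.1 and 68.8 in the fasted and 53.3 and 60.7 in the refed pair, the 7 neutrophil markers to 94.5 and 67.6 and to 57.3 and 59.9, and the 6 adipocyte markers to 6.78 and 2.64 and to 24.7 and 3.71, in the order Cont, Drp1LiKO. Of the adipocyte, lymphocyte, cholangiocyte and erythroid markers, 4 of 6, 3 of 9, 1 of 6 and 1 of 4 were above background on no array. In bulk liver, fewer cells of a type and less RNA per cell cannot be told apart.

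G6pc, the last enzyme of both glycogenolysis and gluconeogenesis, moved in opposite directions on refeeding in the 2 genotypes. Its probe lies at chr11:101238947-101239006 of mm9, the build of the scanner files. The level of G6pc was 4.04 in the fasted and 5.42 in the refed Cont liver, and 4.27 in the fasted and 3.53 in the refed Drp1LiKO liver. The refed Cont liver thus had the highest and the refed Drp1LiKO liver the lowest G6pc signal of the 4, with both fasted livers in between. The unscaled signals, 7574 and 15313 in Cont and 13912 and 6061 in Drp1LiKO, had the same highest and lowest array. The refeeding difference of G6pc was 1.38 ± 0.20 in Cont, 2.61-fold higher, and -0.74 ± 0.20 in Drp1LiKO, 1.67-fold lower. Between genotypes the difference was 0.23 ± 0.20 in fasted livers, within 2 measurement SEs, and -1.90 ± 0.20 in refed livers, 3.72-fold lower in Drp1LiKO. The gap between them, the difference in Drp1LiKO minus that in Cont, was -2.12 ± 0.29. No replicate exists to test it, and it was the sole such gap past 2-fold among the 9 genes. Across 14447 genes well above background on all arrays, 2.38% had a gap of 2-fold or more in this direction and 1.87% in the other, and G6pc stood in place 50 from the lowest. A refeeding difference of 2-fold or more upward in Cont together with any lower signal in Drp1LiKO was seen in 0.401% of these genes, 58 in number. Under every scaling tried, and with no scaling at all, the gap of G6pc stayed between -2.21 and -2.00.

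Pck1, the enzyme that commits oxaloacetate to gluconeogenesis, was lower after refeeding in both genotypes. Its probe lies at chr2:172984307-172984366 of mm9. The level of Pck1 was 6.65 in the fasted and 6.02 in the refed Cont liver, and 7.11 and 5.51 in the fasted and refed Drp1LiKO livers. The fasted Drp1LiKO liver was thus the highest and the refed Drp1LiKO liver the lowest, with the control livers between them. The refeeding difference was -0.63 ± 0.20 in Cont, 1.54-fold lower, and -1.60 ± 0.20 in Drp1LiKO, 3.02-fold lower. Before scaling, the signal of the refed pair was nearly equal, at 23144 in Cont and 24013 in Drp1LiKO, while that of the fasted pair was 46139 and 99668. The genotype difference of Pck1 was 0.46 ± 0.20 in fasted livers and -0.51 ± 0.20 in refed livers. Without scaling these were 1.11 and 0.05, so the sign of the refed value depends on scaling. The gap between the 2 refeeding differences, -0.97 ± 0.29, ranged from -1.18 to -0.84 over the alternatives, on either side of 2-fold. Both genes of the rate-setting pair of gluconeogenesis therefore had a lower refeeding difference in Drp1LiKO than in Cont, by 7.36 measurement SEs for G6pc and 3.36 for Pck1.

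**Figure D1:**
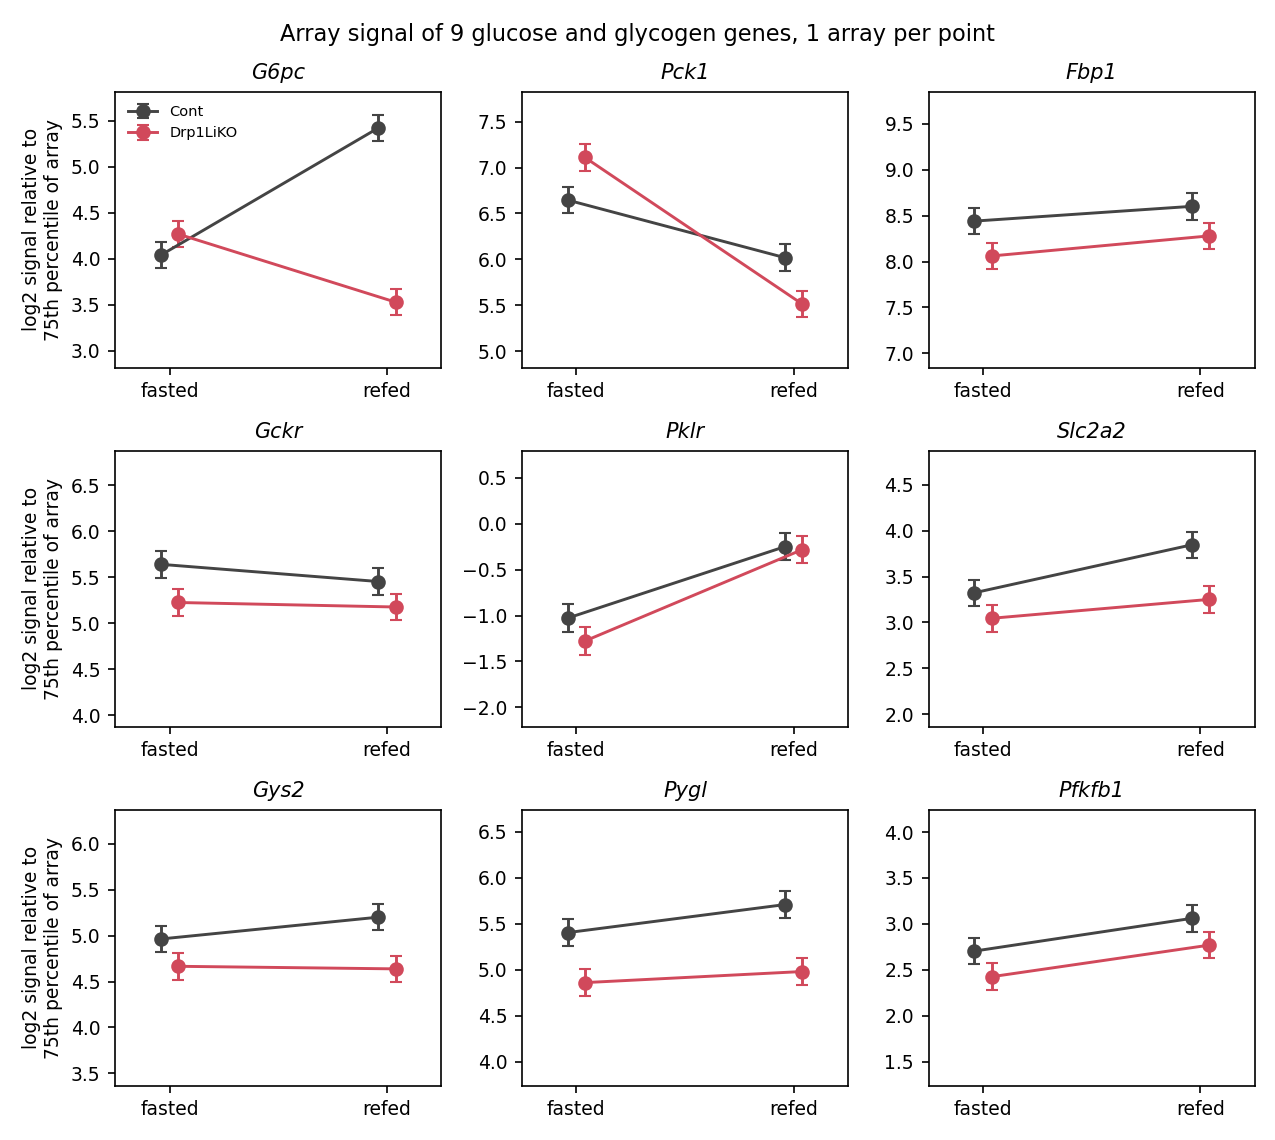
Each panel plots 1 gene, with the log2 signal relative to the 75th percentile of the array on the vertical axis, feeding state on the horizontal axis, Cont in gray and Drp1LiKO in red, 1 array per point, and bars for the measurement SE of an array. The lines cross for G6pc and Pck1, while the Drp1LiKO line lies below the Cont line in the other 7 panels. All panels span the same height in log2 units, but levels of different probes cannot be compared.

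Fbp1, the enzyme between the other pair of gluconeogenic steps, hardly differed. At chr13:62966175-62966234 of mm9, its probe gave levels of 8.44 and 8.60 in fasted and refed Cont livers and 8.06 and 8.28 in fasted and refed Drp1LiKO livers. The refeeding difference was 0.16 ± 0.20 in Cont and 0.22 ± 0.20 in Drp1LiKO, both within 2 measurement SEs. The genotype difference was -0.38 ± 0.20 in fasted and -0.32 ± 0.20 in refed livers, and turned to 0.10 and 0.02 under quantile normalization. No direction can thus be given for Fbp1.

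Liver pyruvate kinase (Pklr), the last step of glycolysis, was higher after refeeding in both genotypes by nearly the same amount. Its probe is listed from 88948907 to 88949425 on chromosome 3 of mm9, a span longer than the probe. Levels were -1.03 in the fasted and -0.25 in the refed Cont liver, and -1.28 and -0.28 in the fasted and refed Drp1LiKO livers. Both refed livers lay above both fasted livers. The refeeding difference of Pklr was 0.78 ± 0.21 in Cont and 0.99 ± 0.21 in Drp1LiKO, the latter 1.99-fold and so just inside the 2-fold limit. Over the scaling and background alternatives it ranged from 0.66 to 0.80 in Cont and from 0.82 to 1.09 in Drp1LiKO. The 2 refeeding differences were 0.22 ± 0.30 apart, within measurement error. Genotype differences of Pklr were -0.25 ± 0.21 in fasted and -0.03 ± 0.21 in refed livers.

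The entry of glucose is represented by the carrier Slc2a2 and by Gckr, a nuclear protein that restrains glucose phosphorylation in the fasted hepatocyte. The Slc2a2 probe, at chr3:28627016-28627075 of mm9, gave levels of 3.32 and 3.84 in fasted and refed Cont livers and 3.05 and 3.25 in Drp1LiKO livers. The refed Cont liver was the highest on this scale, but without scaling the fasted Drp1LiKO liver was, at 5958 against 5128. The refeeding difference of Slc2a2 was 0.52 ± 0.20 in Cont and 0.21 ± 0.20 in Drp1LiKO, and the genotype difference was -0.28 ± 0.20 in fasted and -0.59 ± 0.20 in refed livers. The Gckr probe, at chr5:31629583-31629642 of mm9, read 5.64 and 5.45 in fasted and refed Cont livers and 5.22 and 5.18 in Drp1LiKO livers. The refeeding difference of Gckr was -0.19 ± 0.20 in Cont and -0.05 ± 0.20 in Drp1LiKO. Under quantile normalization these were -0.43 and -0.44, past 2 measurement SEs, so the size of the Gckr difference rests on the scaling. Its genotype differences were -0.42 ± 0.20 in fasted and -0.28 ± 0.20 in refed livers.

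Pfkfb1, which makes and removes the fructose bisphosphate that switches between glycolysis and gluconeogenesis, differed little between the livers. Its probe, at chrX:147078320-147078379 of mm9, gave levels of 2.70 and 3.06 in fasted and refed Cont livers and 2.43 and 2.77 in Drp1LiKO livers. The refeeding difference was 0.36 ± 0.20 in Cont and 0.34 ± 0.20 in Drp1LiKO, with a gap of -0.01 ± 0.29. The genotype difference was -0.28 ± 0.20 in fasted and -0.29 ± 0.20 in refed livers. Each of these 4 differences was within 2 measurement SEs.

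Of the pair that builds and breaks glycogen, neither differed by 2-fold anywhere. Gys2 has 2 probes, at chr6:142371157-142371216 and chr6:142371915-142371974 of mm9. The first gave levels of 4.96 and 5.20 in fasted and refed Cont livers and 4.67 and 4.64 in Drp1LiKO livers, and the second 2.22 and 2.46 against 2.03 and 2.01. With this scaling each Cont liver was above both Drp1LiKO livers on either probe. Without scaling the fasted Drp1LiKO liver was the highest on both, at 18321 against 14368 in the fasted Cont liver on the first probe. Under quantile normalization the genotype differences of the first probe were -0.03 in fasted and -0.37 in refed livers, so the fasted order rests on the scaling. The probes gave refeeding differences of 0.24 and 0.24 in Cont and -0.03 and -0.02 in Drp1LiKO, and genotype differences of -0.30 and -0.20 in fasted and -0.56 and -0.46 in refed livers, each ± 0.20. They thus differed from each other by less than their measurement SE. Pygl, whose probe lies at chr12:71291855-71291914 of mm9, read 5.40 and 5.71 in fasted and refed Cont livers and 4.86 and 4.98 in Drp1LiKO livers. With this scaling both Drp1LiKO livers were below both Cont livers, but without scaling the fasted Drp1LiKO liver was the highest, at 20942 against 19485 in the fasted Cont liver. Its genotype difference was -0.54 ± 0.20 in fasted and -0.73 ± 0.20 in refed livers, or -0.25 and -0.56 under quantile normalization. Its refeeding difference was 0.31 ± 0.20 in Cont and 0.12 ± 0.20 in Drp1LiKO.

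On refeeding, 1 of the 9 genes passed 2-fold in each genotype, but not the same gene. In Cont it was G6pc, which was higher, and in Drp1LiKO it was Pck1, which was lower. Of all genes with the brighter signal well above background, 10.3% passed 2-fold on refeeding in Cont (4.47% higher, 5.83% lower) and 12.8% in Drp1LiKO (5.61% higher, 7.15% lower), so the share of the 9 genes was close to the background. In Cont 7 of the 9 were higher and 2 lower after refeeding, with a median difference of 0.31 against 0.09 for all genes, and 5 lay within 2 measurement SEs. In Drp1LiKO 5 were higher and 4 lower, with a median of 0.12 against 0.08 for all genes, and 6 lay within 2 measurement SEs. Under quantile normalization the median was 0.07 in Cont, with 5 of 9 higher, and -0.25 in Drp1LiKO, with 2 of 9 higher, so neither the small differences nor the balance of the set has a settled sign. In Cont the sign of 2 genes (Fbp1, Gys2) and in Drp1LiKO that of 5 (Fbp1, Gckr, Gys2, Pygl, Slc2a2) changed under another scaling. The refeeding difference in Drp1LiKO of G6pc ranged from -1.02 to -0.65 and passed 2-fold under quantile normalization. Without G6pc and Pck1, the gaps between the genotypes' refeeding differences ran from -0.32 to 0.22, all within 2 measurement SEs.

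**Figure D2:**
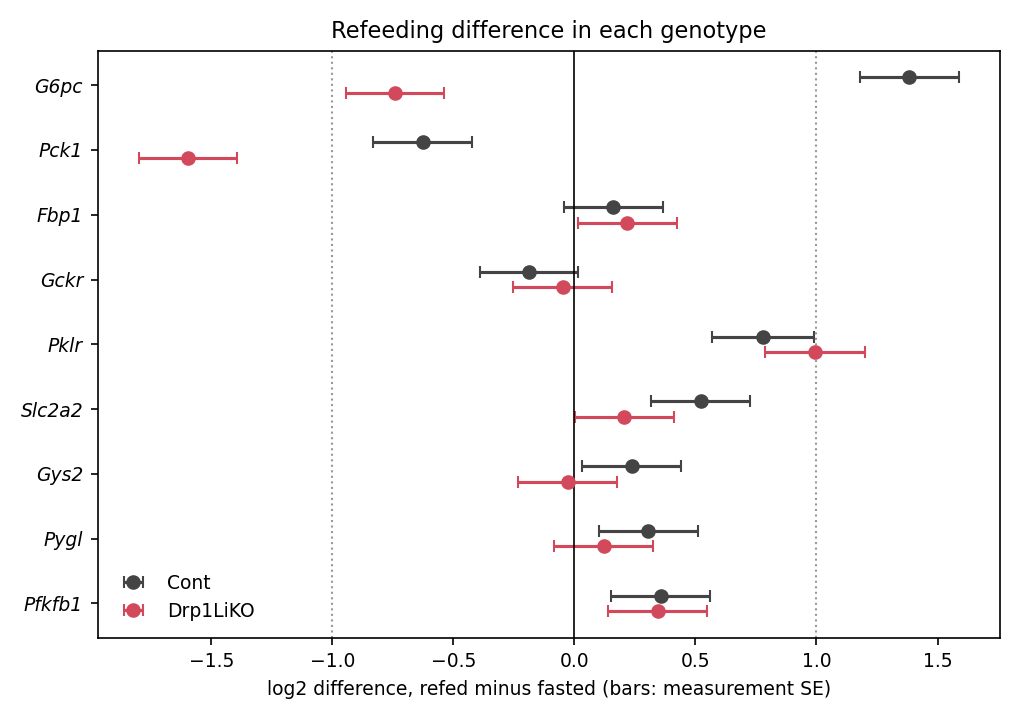
The horizontal axis gives the log2 difference, refed minus fasted, for each of the 9 genes on the vertical axis, in Cont (gray) and Drp1LiKO (red), with bars for the measurement SE and dotted lines at 2-fold. The 2 points are far apart for G6pc, at 1.38 and -0.74, and apart for Pck1, at -0.63 and -1.60, while the bars overlap for the other 7 genes.

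Between genotypes, most of the set was slightly lower in Drp1LiKO. None of the 9 genes passed 2-fold in fasted livers, where 13.2% of all genes did (8.06% higher, 5.19% lower). In refed livers 1 (G6pc) passed it, against 14.4% of all genes (8.05% higher, 6.33% lower). In fasted livers 7 of the 9 were lower and 2 (G6pc, Pck1) higher, with a median of -0.28 against -0.08 for all genes. In refed livers all 9 were lower with this scaling, with a median of -0.51 against -0.04 for all genes, of which 53.9% were lower. Under quantile normalization the median of the set was -0.09 in fasted livers, with 6 of 9 lower, and -0.37 in refed livers, with 8 of 9 lower. The 8 hepatocyte markers had median genotype differences of -0.57 in fasted and -0.48 in refed livers (0.00 and -0.11 under quantile normalization). Their part in the lower signals of the set was not tested. With no scaling between arrays, 0 of the 9 were lower in fasted livers and 4 of 9 in refed livers. With the other scalings and background settings the sign of Fbp1 changed in both states and that of Pklr in refed livers. The refed difference of G6pc was -1.34 without scaling and lay between -1.90 and -1.69 otherwise, past 2-fold in each case.

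**Figure D3:**
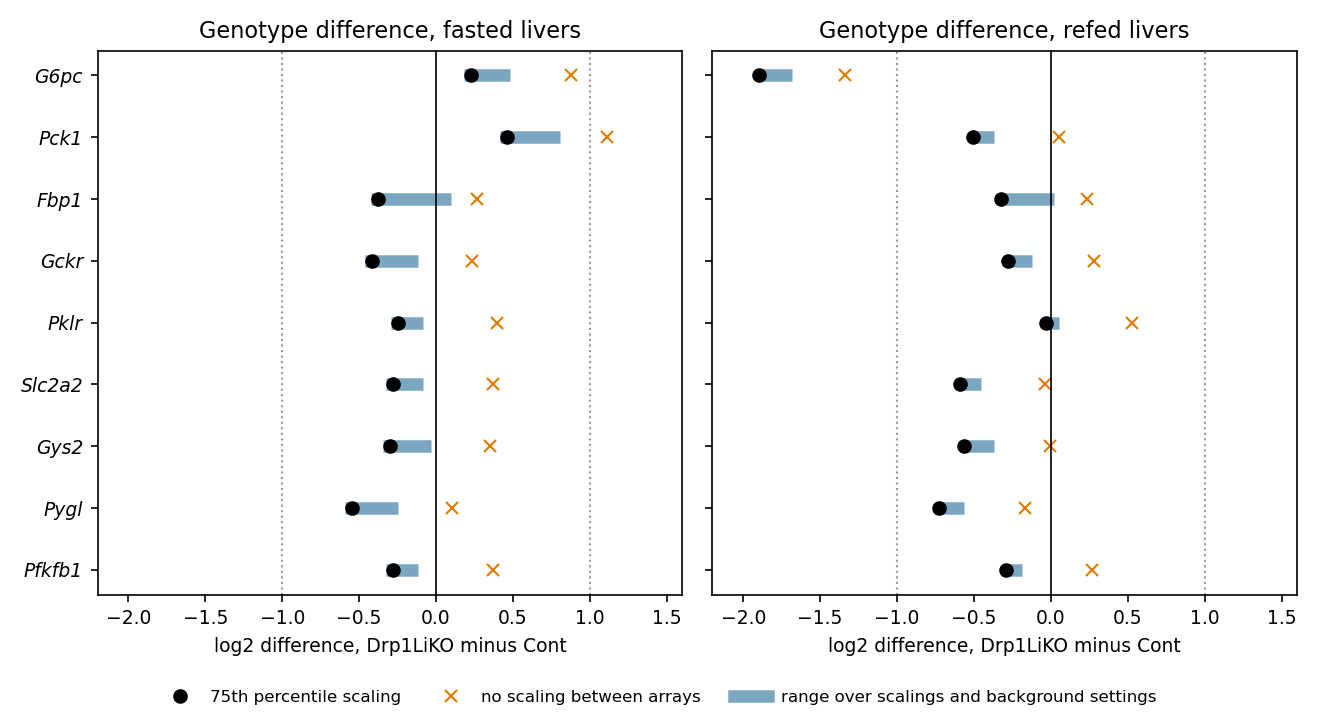
For each of the 9 genes, the horizontal axis gives the log2 difference, Drp1LiKO minus Cont, in fasted (left) and refed livers (right). Black points are the values given in the text, blue bars their range over other scalings and background settings, orange crosses the values without scaling, and dotted lines mark 2-fold. G6pc in refed livers stays beyond 2-fold in each setting, whereas the crosses of the other genes lie near or above 0.

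An additive limma model over the 4 arrays, with genotype and feeding state as terms, was the sole test available, and it counts any interaction as error. At an adjusted p under 0.05 it called 0 of 16744 genes for genotype and 0 for feeding (0% each), and so none of the 9. At an unadjusted p under 0.05 it had 4746 genes (28.3%) for genotype and 4414 (26.4%) for feeding. Pygl had the lowest limma p of the set for genotype, with an estimate of -0.64 ± 0.14 (SE, unadjusted p = 0.0163, adjusted p = 0.121), lower in 2 of 2 pairs. For feeding, Pklr had 0.89 ± 0.15 (adjusted p = 0.169) and Pck1 -1.11 ± 0.29 (adjusted p = 0.170), each with the same direction in 2 of 2 pairs. For G6pc, whose pairs went opposite ways, the feeding estimate was 0.32 ± 0.59 (limma adjusted p = 0.740). No gene of the set was called under any of the alternative fits, although for all genes these called up to 1214 for genotype.

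Other enzymes of the same pathways were read from lists without the 9 genes. Each count past 2-fold below is to be read beside the share of all genes. That share was 10.3% on refeeding in Cont and 12.8% in Drp1LiKO, and 13.2% between genotypes in fasted and 14.4% in refed livers. Of 9 glycolytic genes none passed 2-fold in any of the 4 comparisons. On refeeding, all 9 were higher in Cont, with a median of 0.29, and 7 of 9 in Drp1LiKO, with a median of 0.45. Between genotypes, all 9 were lower in fasted Drp1LiKO livers and 5 of 9 in refed ones, with medians of -0.34 and -0.05. Under quantile normalization 3 of 9 were lower in fasted and 2 of 9 in refed livers, so these directions rest on the scaling. On refeeding, 7 of 9 genes were higher there in Cont, with a median of 0.05, and 6 of 9 in Drp1LiKO, with a median of 0.03.

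Of 14 further genes of gluconeogenesis, 1 passed 2-fold on refeeding in Cont and 0 in Drp1LiKO, with medians of 0.16 and 0.27. The medians turned to -0.08 and -0.07 under quantile normalization, so they give no direction. The gene past 2-fold was Got1, the cytosolic aspartate aminotransferase, at levels of 4.23 and 2.94 in fasted and refed Cont livers and 4.69 and 5.06 in Drp1LiKO livers. The refed Cont liver was the low one. Its refeeding difference was -1.29 ± 0.20 in Cont and 0.37 ± 0.20 in Drp1LiKO, the reverse of the order of G6pc. The Drp1LiKO value was within 2 measurement SEs, 0.01 under quantile normalization and -0.08 without scaling, so its sign is not settled. The genotype difference of Got1 in refed livers was 2.13 ± 0.20. That value and the refeeding difference in Cont stayed past 2-fold under every scaling. In fasted livers 1 of the 14 passed 2-fold, the alanine aminotransferase Gpt2, at 1.28 ± 0.20. In refed livers 2 passed it, Got1 and the lactate and pyruvate carrier Slc16a1, at -1.16 ± 0.29, which lay between -1.16 and -0.76 over the scalings and background settings and was -0.60 without scaling.

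In glycogen metabolism, of 16 measured genes in Cont and 18 in Drp1LiKO, 1 was past 2-fold higher and 1 past 2-fold lower on refeeding in each by its measured signal. Both belong to the scaffolds that bring protein phosphatase to glycogen. Ppp1r3c was the higher one, with levels of 0.93 and 2.47 in fasted and refed Cont livers and 0.99 and 2.07 in Drp1LiKO livers, a difference of 1.54 ± 0.20 in Cont and 1.08 ± 0.20 in Drp1LiKO. The latter was 0.91 with the 75th percentile over detected probes and 0.63 without scaling, under 2-fold. Ppp1r3g was the lower one. Neither refed liver had it well above background, so its difference is a bound, at least 0.98 lower in Cont and at least 2.33 lower in Drp1LiKO on the log2 scale. The bound in Cont is under 2-fold, and with normexp background correction 0 of the 16 genes were past 2-fold lower there. Between genotypes the phosphoglucomutase probe of Pgm2, named Pgm1 in the scanner files, was the gene past 2-fold in both states. Neither Cont liver had it well above background, and it was at least 1.33 higher in fasted and at least 0.47 higher in refed Drp1LiKO livers on the log2 scale, the latter a bound under 2-fold.

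Among 9 genes of fructose, galactose and polyol metabolism, Tkfc was 1.19 ± 0.20 higher on refeeding in Drp1LiKO (0.94 under quantile normalization, under 2-fold), Slc2a5 had a genotype difference of -1.16 ± 0.20 in fasted livers (-0.52 without scaling), and Akr1b3 one of 1.01 ± 0.20 in refed livers. No other gene of that list and none of 8 pentose phosphate genes passed 2-fold in any comparison. Of 23 isoenzymes that other tissues use, 18 to 21 were measured in a comparison, and 2 passed 2-fold on refeeding in Cont, 3 in Drp1LiKO, 6 between genotypes in fasted and 2 in refed livers. With normexp these counts were 0, 0, 1 and 0. Several calls were bounds under 2-fold. That of the glucose transporter Slc2a4 was at least 0.39 higher on refeeding in Drp1LiKO and at least 0.94 lower in fasted Drp1LiKO livers. Both calls in Cont, Pgam2 at -2.90 ± 1.46 and Slc2a4 at -1.54 ± 1.21, were within 2 measurement SEs. So were Slc2a4 on refeeding in Drp1LiKO, at 2.36 ± 1.29, and Fbp2 in fasted livers, at 1.07 ± 1.07. Pfkfb2 had a genotype difference of 1.48 ± 0.28 in fasted livers (0.61 with normexp) and a refeeding difference of -1.39 ± 0.24 in Drp1LiKO (-0.74 with normexp). Pfkfb3 had a genotype difference of -1.10 ± 0.20 in fasted livers (-0.95 with normexp, -0.45 without scaling).

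A list of regulators of gluconeogenesis, with other genes that fasting or insulin moves, was read beside G6pc and Pck1. Some of its genes, such as Igfbp1, Tat and Pdk4, are induced by fasting like the pair, so its counts do not measure control of the pair. On refeeding in Cont, 1 of 26 measured genes of this list was past 2-fold higher and 4 lower, and in Drp1LiKO 0 of 27 higher and 5 lower. Igfbp1, a target that insulin lowers through FoxO1, read 3.40 and 1.52 in fasted and refed Cont livers and 7.08 and 2.67 in Drp1LiKO livers. Its refeeding difference was -1.88 ± 0.20 in Cont and -4.41 ± 0.20 in Drp1LiKO, from the highest signal in the fasted Drp1LiKO liver. Irs2, an insulin receptor substrate, had refeeding differences of -1.35 ± 0.21 and -1.98 ± 0.21, and Pdk4, which inhibits pyruvate dehydrogenase, -1.24 ± 0.24 and -2.10 ± 0.21. Thus 3 genes that insulin lowers were past 2-fold lower after refeeding in both genotypes, while G6pc in Cont was higher. With normexp the value of Pdk4 in Cont was -0.73, which leaves Igfbp1 and Irs2 past 2-fold in both. The fourth in Cont was Ppargc1a, a coactivator of gluconeogenic genes, at -1.02 (-0.66 with normexp), and the other two in Drp1LiKO were Nr0b2 at -1.79 and the insulin receptor Insr at -1.25 (-0.91 with normexp). Ppargc1a and Insr were picked out after their values were seen.

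The kinase Sik1, which cAMP induces and which restrains gluconeogenic transcription, shared its highest liver with G6pc but not the rest of its profile. It was the 1 gene of the list past 2-fold higher on refeeding in Cont, and was named by that value. Sik1 read -3.35 and -0.37 in fasted and refed Cont livers and -2.19 and -1.34 in Drp1LiKO livers. The refed Cont liver was the highest here too, but Sik1 was higher after refeeding in both genotypes, by 2.98 ± 0.30 in Cont (1.84 with normexp) and 0.86 ± 0.21 in Drp1LiKO. The lowest was the fasted Cont liver for Sik1 and the refed Drp1LiKO liver for G6pc. Between genotypes, 5 of the 27 genes of this list were past 2-fold higher and 1 lower in fasted livers, and 3 higher and 3 lower in refed livers. Over all genes 8.06% were past 2-fold higher and 5.19% lower in fasted livers, and 8.05% and 6.33% in refed livers. Trib3, a pseudokinase induced by stress, was 4.02 ± 0.20 and 3.43 ± 0.20 higher in Drp1LiKO, Igfbp1 3.68 ± 0.20 and 1.15 ± 0.20 higher, and the transcription factor Onecut1 differed by -2.00 ± 0.20 and -1.54 ± 0.20 (-0.98 without scaling). The other genes of the list past 2-fold in fasted livers were Pdk4 at 1.24 ± 0.21, Sik1 at 1.16 (0.40 with normexp) and Tat at 1.04, the last pair named after their values were seen. Nr0b2, the repressor SHP, differed by -1.36 ± 0.21 and the coactivator Crebbp by -1.19 ± 0.20 in refed livers (-0.81 and -0.63 without scaling), where Creb1, at 1.21 ± 0.98, was within 2 measurement SEs.

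Lists of genes known to respond to feeding show how far the livers labelled refed differ from the other pair. Of 11 measured genes that refeeding induces, 3 were past 2-fold higher in Cont (Thrsp, Fasn, Srebf1) and 8 in Drp1LiKO, with medians of 0.51 and 1.30. Without scaling these counts were 2 and 4. The same genes were lower in the fasted Drp1LiKO than in the fasted Cont liver, with a median genotype difference of -0.70 and 9 of 11 lower. The fasted Drp1LiKO array enters both this difference and the refeeding difference in Drp1LiKO, so the 2 are not independent. In refed livers their median genotype difference was 0.04. Without scaling these medians were -0.05 and 0.60. Of 14 genes that fasting induces, 4 were past 2-fold lower after refeeding in Cont and 9 in Drp1LiKO, with medians of -0.57 and -1.50, and 1 was higher in Cont, Fgf21 at 1.47 ± 0.20. The 4 in Cont were Igfbp1, Irs2, Pdk4 and Ppargc1a, the same genes that the list of regulators counted as lower in Cont. The 2 lists share these genes and Tat, so their counts are not independent. The count of 4 became 2 with normexp and 7 without scaling. In Drp1LiKO Fgf21 was at -1.77 ± 0.20, so that Fgf21, like G6pc, went opposite ways in the 2 genotypes, under every scaling tried. The genotype difference of Fgf21 was 2.58 in fasted and -0.67 in refed livers, against 0.23 and -1.90 for G6pc. The likeness thus covers the signs on refeeding and not the levels. Of 12 partners and targets of ChREBP, which share several genes with the first list, 2 were past 2-fold higher in Cont (Thrsp, Fasn) and 5 in Drp1LiKO (3 without scaling). The ChREBP gene itself, Mlxipl, had refeeding differences of -0.61 in Cont and -0.80 in Drp1LiKO. It too was named after its values were seen.

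**Figure D4:**
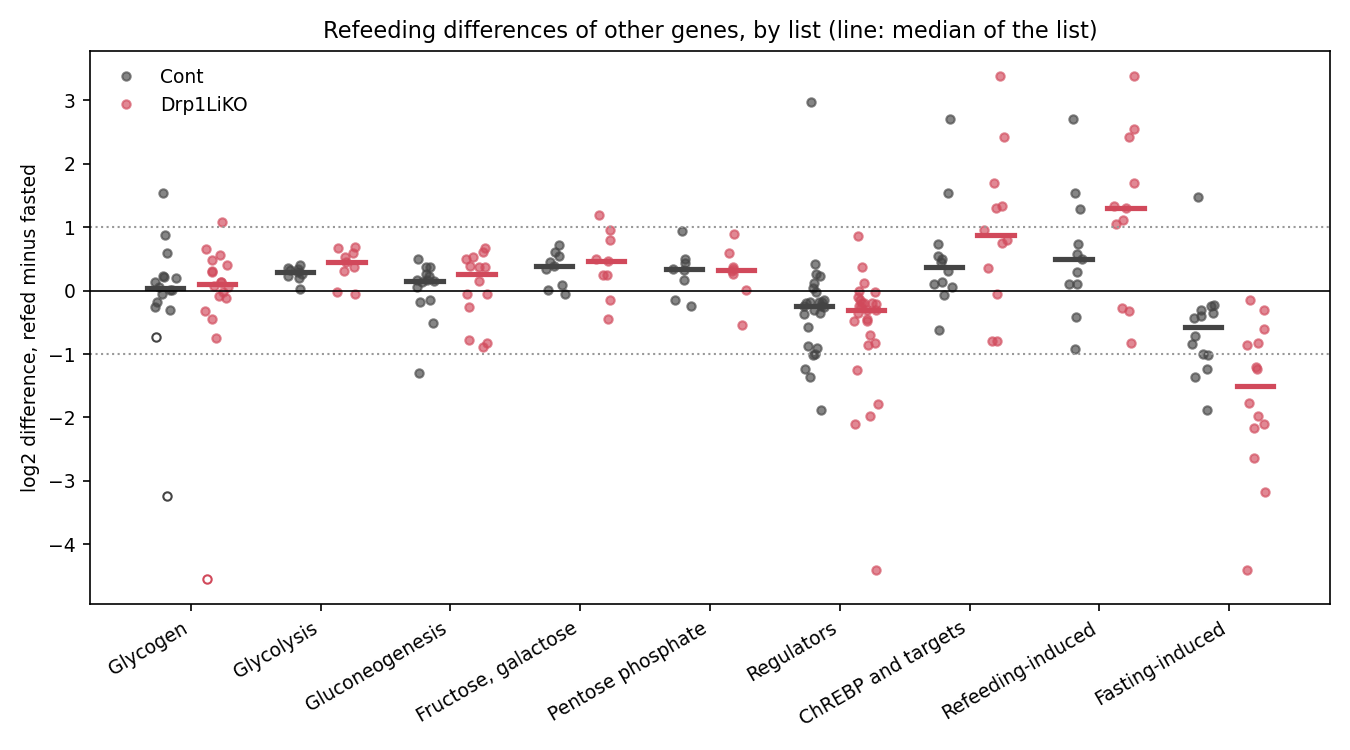
The vertical axis gives the log2 difference, refed minus fasted, of single genes in 9 lists along the horizontal axis, in Cont (gray) and Drp1LiKO (red), with the median of each list as a bar and dotted lines at 2-fold. Open points are genes not well above background on 1 of the 2 arrays, drawn at their measured value. Enzyme lists lie mostly within 2-fold, while genes induced by refeeding reach medians of 0.51 and 1.30 and those induced by fasting -0.57 and -1.50.

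To see how unusual each profile was, the 4 centred levels of a gene were compared with those of 14446 other genes well above background on all arrays, by Euclidean distance in log2 units. For G6pc, 6 genes lay within a distance of 0.41, the measurement errors of 2 genes combined over the 4 arrays. This limit makes no allowance for the centring, so it is somewhat wide and the counts are on the high side. The nearest was a probe with no gene name, at 0.14, followed by Mtss2 at 0.15 and Zfp182 at 0.20. For Pck1, 55 genes lay within that distance, led by Casp6 at 0.07, Tmem245 at 0.09 and Arrdc2 at 0.20. For the other 7 genes of the set, between 1108 (Pklr) and 4623 (Fbp1) genes lay within it, so their profiles were close to those of many other genes. With 4 arrays, likeness of profile is a description of these livers.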

How the data were processed

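The authors deposited intensity values of single-color Agilent arrays, background-subtracted by Feature Extraction (labels: version 9.5.1.1, file header: modules 10.7.1.1) and not normalized between the arrays, which share 1 slide and scan. Their normalized table fits a quantile normalization of these signals (99th percentile of the difference 0.00353, largest 2.97, on the log2 scale) and served as an alternative. The array design and RNA kit in the study's methods differ from the labels. The files carry the labelled design.

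Signals were set relative to the 75th percentile of each array on the log2 scale. Repeated spots were averaged and outlier spots dropped, which removed 37 probes. Names were updated through RefSeq (21012 of 22472 accessions matched). A gene with several probes was read from the probe detected on most arrays, then the brightest. A difference was called at 2-fold on the measured signals with the brighter one well above background, and where the other was not, a bound against the lowest signal well above background is given. Genotype and feeding were tested additively in limma with Benjamini-Hochberg adjustment. Besides the 9 genes and Dnm1l, the text names up to 3 genes per direction, list and comparison past 2-fold, and the 3 nearest profiles. A further gene of the rule is not reported here. Procedures were tested on simulated data. The 9 genes and the lists were chosen with earlier results of these data known. Alternatives were other scalings, normexp with offset 50, the authors' values, probe and dim-signal rules, a 1.5-fold limit and other limma fits. Software was Python 3.11.15, numpy 2.4.6, pandas 2.3.3, matplotlib 3.10.9, R 4.3.3 and limma 3.58.1.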

Additional observations from a re-analysis of the deposited data

Results flagged for a closer look

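G6pc stood out because its refeeding differences had opposite signs in the 2 genotypes, 1.38 in Cont and -0.74 in Drp1LiKO on the log2 scale. Pck1 stood out because its genotype differences had opposite signs in the 2 feeding states, 0.46 in fasted and -0.51 in refed livers. With 1 array per group neither difference was tested.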

How the results depend on the processing

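No paired analysis was possible because each group has 1 array, and for the same reason no array could be left out. In Cont, the refeeding count of 1 past 2-fold became 3 at 1.5-fold (with Pck1 and Pklr). In Drp1LiKO the count of 1 became 2 with median scaling (with Pklr), 3 with quantile normalization, the authors' values or 1.5-fold (with Pklr and G6pc), and 2 without scaling (with G6pc). In fasted livers the count of 0 became 1 (Pck1) without scaling, and in refed livers the count of 1 became 3 at 1.5-fold (with Pygl and Slc2a2). No value past 2-fold changed sign under any alternative. Analysis without scaling was added after the data had been seen.

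Over all genes, limma's 0 calls for genotype became 1214 (463 higher, 751 lower) when genes well above background on all 4 arrays were tested, 580 with normexp, 474 with an intensity trend and 1 without the feeding term, and its 0 calls for feeding became 15 with the first of these. The causes were not tested. Genes past 2-fold numbered 1693 and 2339 on refeeding in Cont and Drp1LiKO and 2390 and 2509 between genotypes in fasted and refed livers. In the same order they were 726, 888, 920 and 1061 with normexp, 597, 1094, 1039 and 1109 where both arrays had to be above background, and 3576, 5942, 5112 and 5315 at 1.5-fold. Without a filter on dim signals they were 3175, 3810 and, in refed livers, 5057, and without scaling 3578, 4357 and 3946 in all but Cont. Of calls in fasted livers, 60.8% were higher, against 72.1% with the 75th percentile over detected probes, 39.6% with normexp and 89.7% without scaling. On refeeding in Drp1LiKO the shares were 44.0%, 31.0%, 56.3% and 16.7%. Those scalings set the median of all genes in fasted livers at -0.08, 0.09, -0.12 and 0.57. Small differences of the 9 genes are read against such shifts.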
